A study of Caenorhabditis elegans with 16 samples.

Results

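C38D9.2 (WBGene00008010) is a protein-coding gene on the plus strand of Caenorhabditis elegans chromosome V, and small RNAs map along it in young adult hermaphrodites. The locus was taken by position, as the 5 adjoining 1 kb bins that the annotated gene touches (V:17567001–17572000), of 100257 bins in the deposited table. The bins follow from position, but the gene was picked with earlier results of these data known. The 20 bins on each side served as flanks, so 45 bins were examined in 16 libraries. All 5 bins of the locus averaged 5 RPKM or more over all libraries, the filter used for tests, as did 3 of the 40 flanking bins.

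Each library stood for 1 combination of genetic background and hrde-1 state. The backgrounds were set-32(ok1457), set-32(red11), met-2(n4256) set-25(n5021) and wild type (N2), the standard laboratory strain. In the mutant state the worms carried hrde-1(tm1200). In the early repaired state, written hrde-1(+R), the mutation had been repaired and the worms were taken at generation F5, or at F8 in set-32(ok1457). In the F20 state they were taken at generation F20 after repair, and in the never mutant state hrde-1 had not been mutated. There were 4 libraries for each state and 4 for each background, and no genotype had a second library, so the p-values given here measure the spread between backgrounds or between states. The series title asks what SET-32 does in starting nuclear RNAi silencing over generations, and repaired worms give the state of the locus once the hrde-1 mutation has been removed.

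HRDE-1 is an Argonaute protein that works in germline nuclei. It is loaded with secondary siRNAs, which RNA-dependent RNA polymerases make on an mRNA template and which are antisense to that mRNA, and it directs transcriptional silencing and histone H3 lysine methylation at the matching genes over generations. SET-32, MET-2 and SET-25 are SET-domain proteins, the class that includes the histone methyltransferases, and act in heterochromatin formation. Because the polymerases copy mature transcripts, endogenous siRNAs of this class are usually found over exons. The cloning procedure did not depend on a 5′ monophosphate and therefore takes in such siRNAs, which carry a 5′ triphosphate. A bin value adds up all small RNAs of either strand and any length.

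The annotated gene (V:17567150–17571742, 4593 bp, WBcel235 annotation) has 4 transcripts of 8 or 9 exons with 1 coding sequence of 1479 bp at V:17569380–17571600. Bases of gene parts were counted over the 4 transcripts together. The first bin, V:17567001–17568000, holds 834 bases of 5′ UTR exon and no coding bases, and is called the first-exon bin here. The next, the 5′ UTR bin (V:17568001–17569000), is 5′ UTR exon over its whole 1000 bp when the transcripts are joined. Single transcripts can cover less of it, as C38D9.2.4 starts at V:17568466. The start-codon bin (V:17569001–17570000) holds 208 coding bases beside 379 bases of 5′ UTR, the coding bin (V:17570001–17571000) holds 771 coding bases, and the stop-codon bin (V:17571001–17572000) holds 500 coding bases and 139 bases of 3′ UTR. The bin beyond the gene's end (V:17572001–17573000), called the downstream bin, overlaps no annotated gene and is a flank. The authors marked the 5′ UTR, start-codon, coding, stop-codon and downstream bins in a yes/no column named GRTS, which marks 191 bins of the table. The abbreviation is not expanded in the file and the first-exon bin does not carry the mark.

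The genome build of the table is not given in the sources used here, and its chromosome V ends 2732 bp short of the last gene of the annotation, so the match of bins to gene parts was checked on the values. Over the 15 bins V:17562001–17577000 the number of C38D9.2 coding bases in a bin and the mean of the never mutant libraries had a Pearson r of 0.94 with no shift, 0.724 with a shift of −1 kb and 0.373 with a shift of +1 kb. This is a correlation across bins, and adjoining bins are not independent. Exon bases of all genes did not settle the match: over the 45 bins r was 0.189 with no shift and 0.344 at its highest, with a shift of −3 kb, and over 201 bins it was −0.051 and at its highest −0.026. The names of gene parts therefore rest on the coding bases of C38D9.2 alone. Exon bases of C38D9.2 were 834, 1000, 587, 771 and 642 in the 5 bins, 5′ to 3′. Never mutant means were 0.0825, 26.5, 95.7, 335 and 411 RPKM in the same order, so they did not follow the exon bases.

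The steps between low values give the worth of 1 read, which was 1.45 to 6.30 RPKM, and the RPKM summed over a library then came to between 143 and 499 times 1000 reads. Summed over its 5 bins, the locus was worth 39 reads in the met-2 set-25 early repaired library and 93 to 512 reads in the other 15. Table totals split the libraries: they reached 90.0 to 96.7% of the full per-million sum in 5 (mutant and never mutant of both set-32 alleles, and early repaired met-2 set-25) and 67.7 to 80.5% in the other 11. Small RNAs over the genes of intestine markers summed to 138 to 616 RPKM in those 5, against 4410 to 12400 RPKM in the others. Sums of muscle markers were 9.62 to 233 RPKM in the 5, against 265 to 1250 RPKM, and those of hypodermis markers 0.02 to 2.81, against 86 to 373 RPKM. Germline and oocyte markers summed to 734 to 1660 RPKM in the 5 and to 864 to 1300 RPKM in the other 11, sperm markers to 56.2 to 98.5 against 84.0 to 244 RPKM, and neuron markers to 102 to 164 against 52.2 to 169 RPKM. None of the markers was listed at 0 in all 16 libraries. Every hrde-1 mutant was on the same side of this split as the never mutant library of its background, and so were all wild-type libraries and the mutant, F20 and never mutant libraries of met-2 set-25. Repaired set-32 libraries were on the other side from the mutant and never mutant libraries of their allele. Over hrde-1 itself, small RNAs summed to 248 to 390 RPKM in the mutants and to 280 to 711 RPKM in the other 12 libraries, so these ranges overlap and do not check the labels. The library-name prefix in the labels was the same in all 8 set-32 libraries and differed between the repaired and the other libraries of met-2 set-25 and of wild type, and between the wild-type mutant and N2.

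In worms whose hrde-1 had never been mutated, small RNAs were highest in the coding and stop-codon bins. The names of the bins were themselves checked on this profile, so it is not independent evidence of where in the gene the small RNAs lie. The stop-codon bin averaged 411 ± 167 RPKM and the coding bin 335 ± 163 RPKM (SD, n = 4 each), against 95.7 ± 48.5 RPKM in the start-codon bin, 26.5 ± 14.8 RPKM in the 5′ UTR bin and 13.6 ± 9.32 RPKM in the downstream bin. The first-exon bin was listed at 0 in 3 of these libraries and at 0.33 RPKM, less than 1 read, in set-32(ok1457). Within each library the coding and stop-codon bins were the highest of the 6, and the start-codon bin lay above the 5′ UTR bin in set-32(ok1457), set-32(red11) and wild type, with 25.1 against 27.1 RPKM in met-2 set-25.

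**Figure D1:**
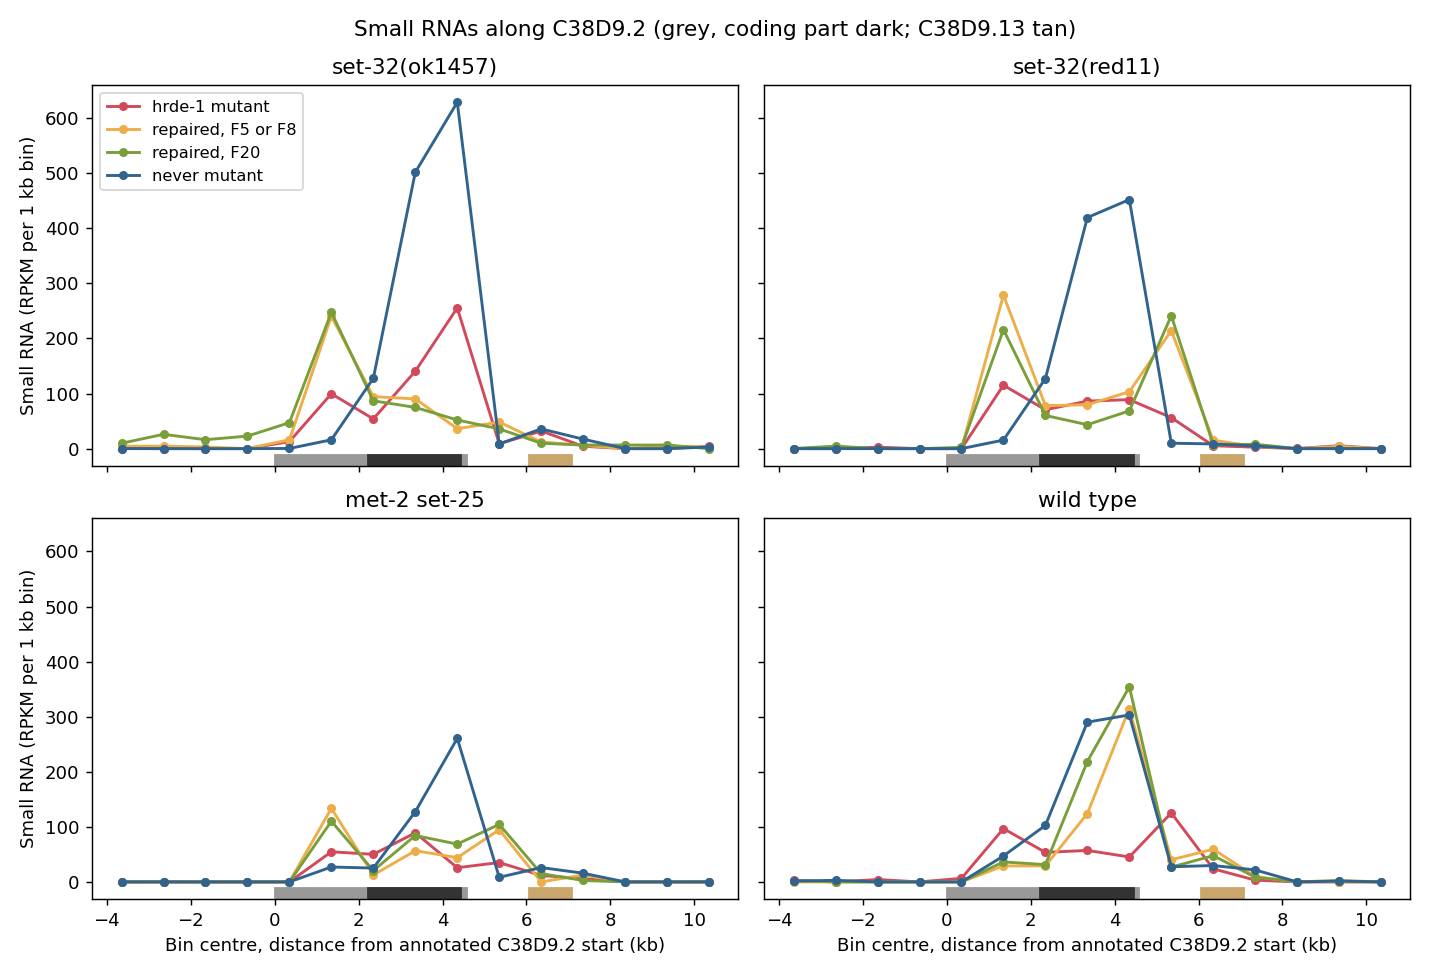
Small RNAs in 1 kb bins along C38D9.2, 1 panel per background, with the distance of the bin centre from the annotated start (kb) on the x axis, RPKM on the y axis, 1 line per hrde-1 state, and bars at the foot for the gene (grey), its coding part (dark) and C38D9.13 (tan). Never mutant libraries peak over the coding and stop-codon bins (127.5 to 629 RPKM), while repaired set-32 and met-2 set-25 libraries peak over the 5′ UTR bin and, in set-32(red11) and met-2 set-25, over the downstream bin as well.

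Loss of hrde-1 lowered small RNAs over the coding and stop-codon bins of this gene. Over the 5′ UTR and downstream bins each mutant had a higher value than never mutant worms of its background, but these bins did not pass the test. In the stop-codon bin the mutants had 255.6 RPKM in set-32(ok1457), 89.0 in set-32(red11), 25.8 in met-2 set-25 and 45.3 in wild type. The never mutant libraries had 629 RPKM in set-32(ok1457), 452 in set-32(red11), 261 in met-2 set-25 and 303 in wild type. Every mutant library lay below every never mutant library, though the highest mutant (set-32(ok1457)) came within a few RPKM of the lowest never mutant library (met-2 set-25). The log2 difference was −2.41 ± 0.31 (SE; limma adjusted p = 0.0138), lower in 4 of 4 backgrounds.

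The coding bin fell as well. The mutants had 140.6 RPKM in set-32(ok1457), 86.3 in set-32(red11), 89.1 in met-2 set-25 and 57.2 in wild type. Never mutant worms had 502 RPKM in set-32(ok1457), 419.6 in set-32(red11), 127.5 in met-2 set-25 and 290.1 in wild type. The ranges overlap because the never mutant met-2 set-25 library lay below the set-32(ok1457) mutant, but within each background the mutant was lower. The log2 difference was −1.73 ± 0.31 (SE; limma adjusted p = 0.0399).

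The 5′ UTR bin differed in the opposite direction, without passing the threshold. It held 99.7 RPKM in the set-32(ok1457) mutant, 115 in the set-32(red11) mutant, 54.7 in the met-2 set-25 mutant and 96.8 in the wild-type mutant. The never mutant libraries held 16.1 RPKM in set-32(ok1457), 15.6 in set-32(red11), 27.1 in met-2 set-25 and 47.1 in wild type. The mutant and never mutant libraries did not overlap. The log2 difference was 1.85 ± 0.38 (SE; limma adjusted p = 0.0655, unadjusted p = 0.000864). Its size differed between backgrounds, at 2.56 and 2.81 in set-32(ok1457) and set-32(red11) against 0.99 in met-2 set-25 and 1.02 in wild type. The test of that difference, both set-32 alleles against the other 2 backgrounds, gave 1.68 ± 0.53 with an adjusted p of 0.61 by limma. That test called 0 of the 5 bins and 0% of all bins, and before adjustment 2 of the 5 were higher with p under 0.05 and 0 were lower, against 3.03% and 4.27% of all bins. The same test gave 0.24 ± 2.29 in the first-exon bin, −1.05 ± 0.67 in the start-codon bin, −0.63 ± 0.61 in the coding bin and 1.19 ± 0.51 in the stop-codon bin (SE; limma adjusted p from 0.68 to 0.987).

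The downstream bin had 8.76 RPKM in the set-32(ok1457) mutant, 56.3 in set-32(red11), 35.2 in met-2 set-25 and 125 in wild type. Without the mutation it had 8.59 RPKM in set-32(ok1457), 9.88 in set-32(red11), 8.40 in met-2 set-25 and 27.6 in wild type. Only set-32(ok1457) had nearly equal values in both states, and the other 3 backgrounds were higher in the mutant, by 1.94 to 2.40 on the log2 scale. The fitted difference was 1.63 ± 0.44 (SE; limma adjusted p = 0.162). The start-codon bin, between the 5′ UTR bin and the lowered bins, had 57.1 ± 9.21 RPKM in mutants and 95.7 ± 48.5 RPKM in never mutant worms (SD, n = 4 each). It was lower in the mutants of set-32(ok1457), set-32(red11) and wild type (−1.23, −0.84 and −0.93) and higher in met-2 set-25 (0.97), and the fitted difference of −0.51 ± 0.37 did not pass (limma adjusted p = 0.70). The first-exon bin held 12.8 RPKM in the set-32(ok1457) mutant and 6.48 RPKM in the wild-type mutant, 3 reads each, and was listed at 0 in the mutants of set-32(red11) and met-2 set-25. Its fitted difference was 1.57 ± 1.12 (SE; limma adjusted p = 0.691).

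Of the 5 bins, 2 were called lower and 0 higher after loss of hrde-1. Among all 25407 bins tested 0.712% were called lower and 0.425% higher, 1.14% in all. Groups that did not overlap were seen in 2 of the 5 bins, the 5′ UTR and stop-codon bins, against 4.08% of all tested bins. Before adjustment 2 of the 5 were lower and 1 was higher with p under 0.05, as were 5.99% and 4.93% of all bins. The 4 pairs share a side of the table-total split, so intestine, muscle and hypodermis markers were on the same level range within each pair. Marker sums are small RNAs over the marker genes and do not measure the expression of those genes. In whole worms, fewer cells of a type and less RNA per cell cannot be told apart, and other sources of the marker levels were not tested. Which background entered bore on these calls: leaving out set-32(red11) ended both (adjusted p = 0.251 for the coding and 0.103 for the stop-codon bin), leaving out set-32(ok1457) or wild type ended that of the coding bin (0.146 and 0.0868), and leaving out met-2 set-25 ended that of the stop-codon bin (0.0603). The differences themselves stayed between −2.14 and −1.54 for the coding bin and between −2.78 and −2.11 for the stop-codon bin over these 4 refits.

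**Figure D2:**
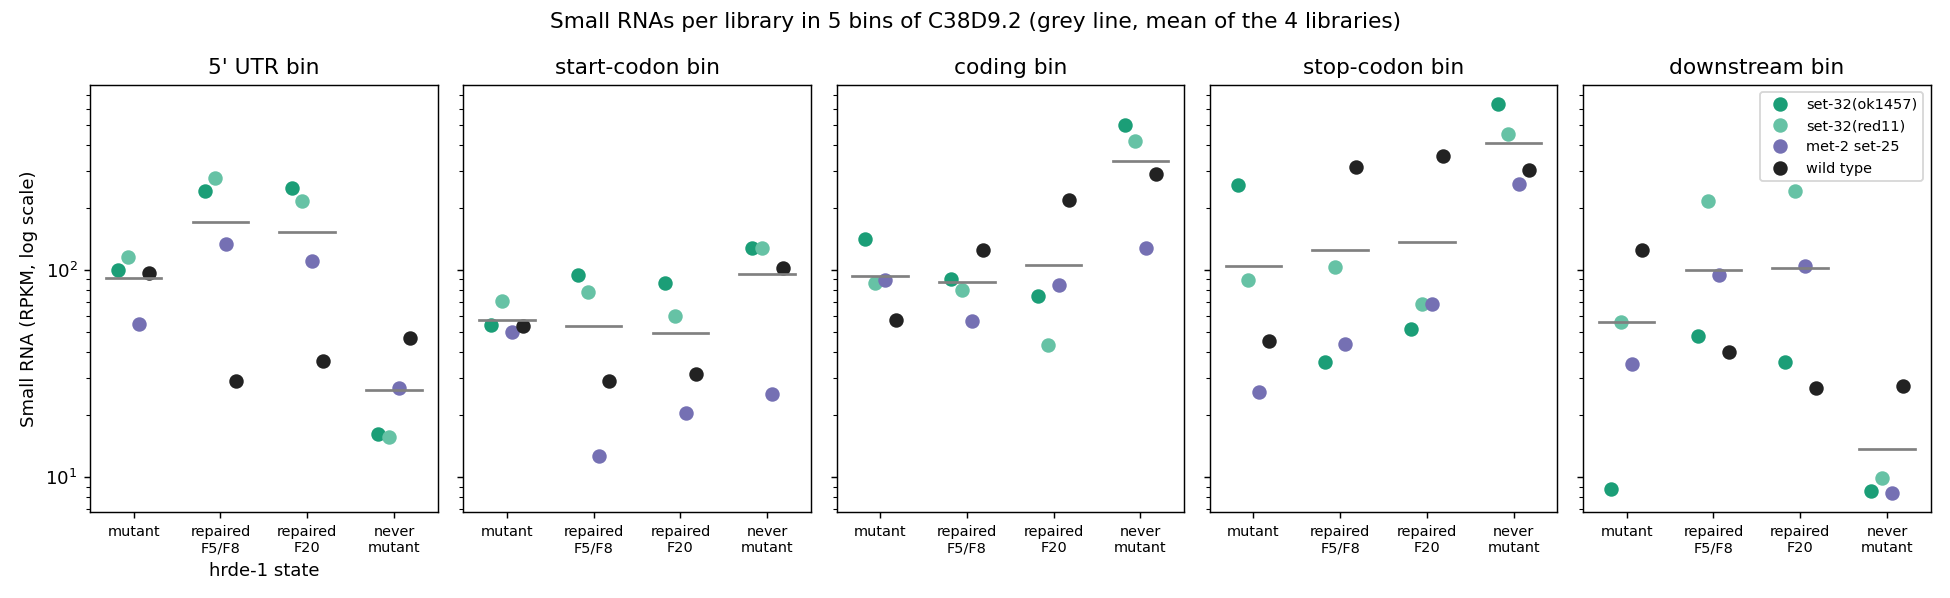
Small RNAs (RPKM, log axis) in 5 bins of the locus, 1 panel per bin, with the 4 hrde-1 states on the x axis, 1 dot per library coloured by background and a grey line at the mean of the 4 libraries of a state. In the stop-codon bin all mutants (25.8 to 255.6 RPKM) lie below all never mutant libraries (261 to 629 RPKM), and in the 5′ UTR bin all mutants (54.7 to 115 RPKM) lie above them (15.6 to 47.1 RPKM).

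As bins differed in opposite directions, the place of the small RNAs along the gene was also described. Shares of a library's own 6-bin sum (the 5 bins of the locus and the downstream bin) do not depend on how libraries were scaled. The coding and stop-codon bins together held 69.3% of that sum in the set-32(ok1457) mutant, 42.0% in set-32(red11), 45.1% in met-2 set-25 and 26.7% in wild type. In never mutant worms they held 88.1% in set-32(ok1457), 85.1% in set-32(red11), 86.5% in met-2 set-25 and 77.0% in wild type. All 4 mutants lay below all 4 never mutant libraries. The 5′ UTR and downstream bins together held 19%, 41.1%, 35.3% and 57.7% in the mutants of set-32(ok1457), set-32(red11), met-2 set-25 and wild type. In never mutant worms they held 1.92%, 2.48%, 7.90% and 9.69% in the same order of backgrounds.

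After repair the libraries parted by background, with 1 library per background and time. Repaired set-32 libraries and early repaired met-2 set-25 lie across the table-total split from their mutants. Repaired wild type and F20 met-2 set-25 do not. In repaired wild type the coding and stop-codon bins held 81.7% at F5 and 85.8% at F20, above the 77.0% of N2. In repaired set-32(ok1457) they held 24.1% at F8 and 23.3% at F20, below the 69.3% of its mutant. Repaired set-32(red11) had 24.3% at F5 and 17.7% at F20, and repaired met-2 set-25 had 29.5% at F5 and 39.4% at F20, also below their own mutants. The 5′ UTR and downstream bins held 52.1 to 72.4% in the 6 repaired libraries of these 3 backgrounds, against 12.9% and 9.48% in the repaired wild-type libraries. The 5′ UTR bin outweighed the stop-codon bin by 0.68 to 2.70 on the log2 scale in those 6 libraries, whereas repaired wild type stood at −3.39 and −3.25 and N2 at −2.66.

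**Figure D3:**
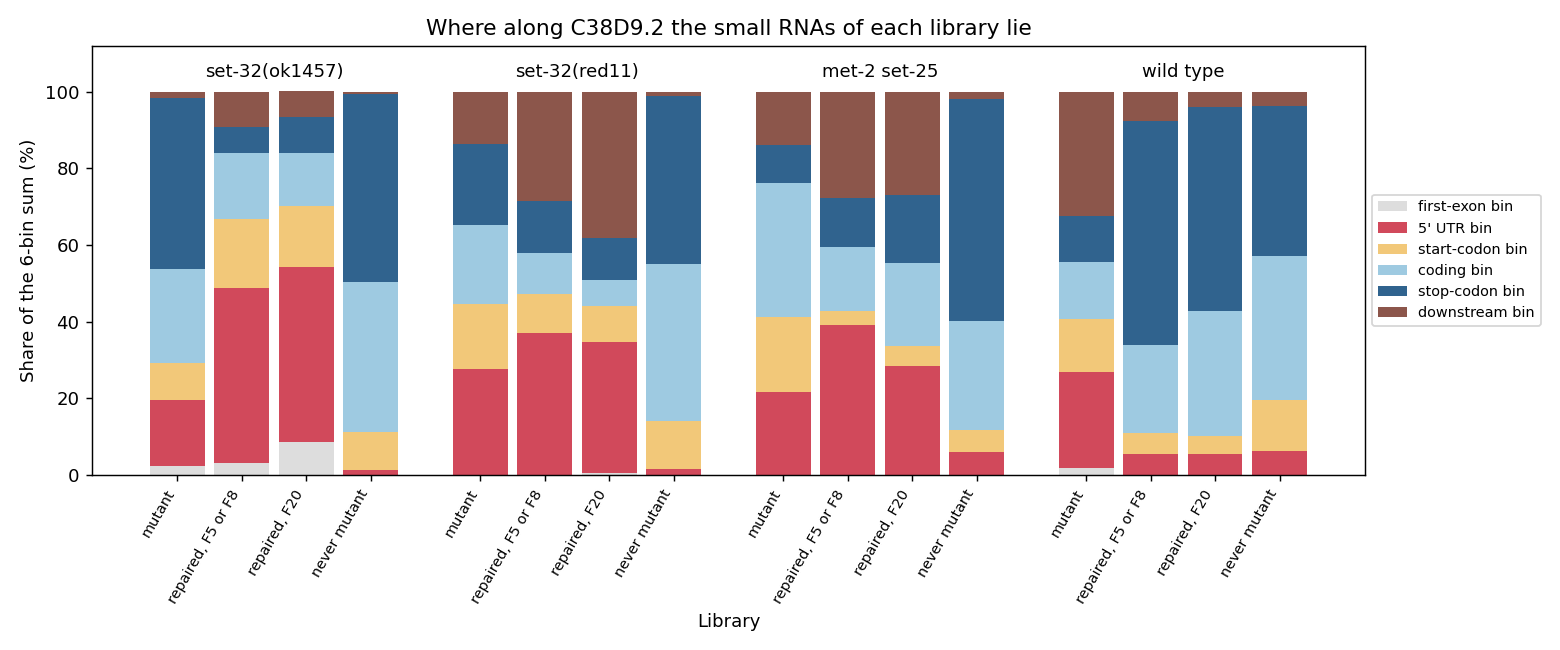
Share of each library's 6-bin sum (%, y axis) held by the first-exon, 5′ UTR, start-codon, coding, stop-codon and downstream bins, 1 stacked bar per library, grouped by background. Blue segments (coding and stop-codon bins) make up 77.0 to 88.1% of the never mutant bars and 81.7 to 85.8% of the repaired wild-type bars, and 17.7 to 39.4% of the other repaired bars.

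Early repaired libraries were set against never mutant ones. Both this comparison and that of the mutants use the same 4 never mutant libraries, so their results are not independent. The early pairs of both set-32 alleles and of met-2 set-25 lie across the table-total split, where intestine, muscle and hypodermis markers change, met-2 set-25 in the opposite direction to set-32, and the wild-type pair does not. In this comparison, being wild type and staying on 1 side of the split cannot be told apart. In the 5′ UTR bin the early repaired libraries had 240.5 RPKM in set-32(ok1457), 279 in set-32(red11), 134 in met-2 set-25 and 29.1 in wild type, against the never mutant values given above. The 3 mutant backgrounds were higher by 3.82, 4.08 and 2.26 on the log2 scale and wild type had −0.68. In the stop-codon bin they had 36.2 RPKM in set-32(ok1457), 103 in set-32(red11), 44.1 in met-2 set-25 and 315 in wild type. There the log2 differences were −4.08, −2.12, −2.54 and, in wild type, 0.05.

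The coding bin was lower in all 4 early repaired libraries, with 90.4 RPKM in set-32(ok1457), 79.7 in set-32(red11), 56.7 in met-2 set-25 and 124 in wild type. The downstream bin was higher in all 4, with 48.3 RPKM in set-32(ok1457), 214 in set-32(red11), 94.8 in met-2 set-25 and 40.2 in wild type. For these bins the 2 sets of libraries did not overlap, which held in 2.01% of all tested bins. Wild type had the smallest differences, at −1.22 in the coding bin and 0.53 in the downstream bin, except that met-2 set-25 had −1.16 in the coding bin. Across the 4 backgrounds the fitted differences were 2.37 ± 0.71 for the 5′ UTR bin, −1.80 ± 0.40 for the coding bin, −2.17 ± 0.60 for the stop-codon bin and 2.64 ± 0.59 for the downstream bin (SE), and 0.98 ± 1.62 for the first-exon bin. limma called 0 of the 5 bins, as it called 0% of all bins (adjusted p from 0.963 upwards for these bins). At an unadjusted p under 0.05, 1 of the 5 bins was higher and 3 were lower, against 205 (0.807%) and 702 (2.76%) of all 25407 bins.

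By F20 repaired wild type had 36.3 RPKM in the 5′ UTR bin, 219 in the coding bin, 354 in the stop-codon bin and 26.9 in the downstream bin. Its log2 differences from N2 were −0.37, −0.41, 0.22 and −0.03 on the log2 scale. F20 set-32(ok1457) had 247 RPKM in the 5′ UTR bin, 74.9 in the coding bin, 52.0 in the stop-codon bin and 35.8 in the downstream bin. Its log2 differences from never mutant set-32(ok1457) were 3.86, −2.73, −3.57 and 1.94. F20 set-32(red11) had 216 RPKM in the 5′ UTR bin, 43.5 in the coding bin, 68.6 in the stop-codon bin and 241 in the downstream bin, with log2 differences of 3.71, −3.24, −2.70 and 4.48. F20 met-2 set-25 had 110.2 RPKM in the 5′ UTR bin, 84.3 in the coding bin, 68.7 in the stop-codon bin and 104.5 in the downstream bin, with log2 differences of 1.99, −0.59, −1.91 and 3.49. The met-2 set-25 pair lies on the same side of the table-total split and the 2 set-32 pairs lie across it.

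The start-codon bin was an exception in wild type. It had 94.4 RPKM early and 86.8 at F20 in set-32(ok1457), 78.1 and 60.2 in set-32(red11), 12.6 and 20.5 in met-2 set-25, and 29.1 and 31.4 in wild type. Never mutant worms had 128 RPKM in set-32(ok1457), 127 in set-32(red11), 25.1 in met-2 set-25 and 103 in wild type. Wild type was thus the background with the largest difference in this bin at both times, at −1.79 early and −1.68 at F20, and its repaired values also lay below the 53.6 RPKM of its mutant. The fitted differences were −0.96 ± 0.39 early and −0.89 ± 0.36 at F20 (SE; unadjusted p = 0.0343 and 0.0342).

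Over all 4 backgrounds limma called 0 of the 5 bins between F20 and never mutant libraries, and 0% of all bins, and before adjustment 1 of the 5 was higher and 3 were lower with p under 0.05 (271 and 807 of all 25407, or 1.07% and 3.18%). The fitted differences were 2.30 ± 0.66 in the 5′ UTR bin, −1.74 ± 0.50 in the coding bin, −1.99 ± 0.55 in the stop-codon bin, 2.47 ± 0.67 in the downstream bin and 1.75 ± 1.28 in the first-exon bin (SE, adjusted p = 0.958 for each). None of the 5 bins had sets of libraries that did not overlap, against 2.63% of all bins. When the side of the table-total split was entered as a term, a fit added after the data were seen, the differences of the 5′ UTR, coding, stop-codon and downstream bins were 0.81 ± 0.55, −0.50 ± 0.33, −0.84 ± 0.48 and 1.73 ± 0.84, since both set-32 pairs then enter only through that term. The same fit for early against never mutant libraries gave 2.07 ± 0.66, −1.63 ± 0.31, −2.04 ± 0.57 and 2.575 ± 0.618 (SE) in the same order of bins. It called 0 of the 5 bins, and in it the set-32 and met-2 set-25 pairs cross the split in opposite directions. The part of the split in the repaired set-32 values was not tested.

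**Figure D4:**
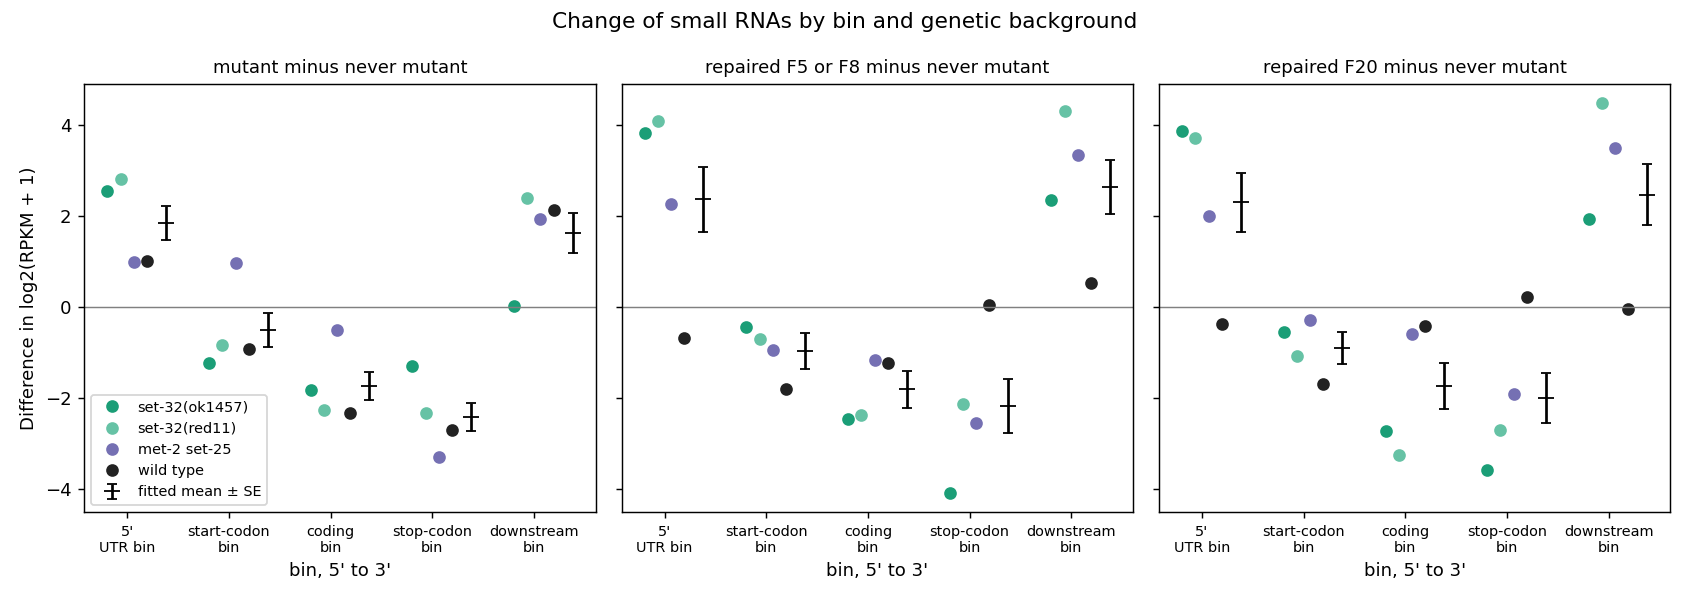
Difference in log2(RPKM + 1) from the never mutant library of the same background (y axis) in 5 bins, 5′ to 3′ along the gene (x axis), for mutants, early repaired and F20 libraries, with 1 dot per background and the fitted mean with its SE in black. Wild type shows the bin-wise split in the mutant (1.02 in the 5′ UTR bin, −2.71 in the stop-codon bin) and lies near 0 in these bins at F20 (−0.37 and 0.22). At F20 both set-32 alleles are at 3.71 to 3.86 and −3.57 to −2.70, and met-2 set-25 is at 1.99 and −1.91. The F20 set-32 pairs lie across the table-total split, and the met-2 set-25 and wild-type pairs do not.

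The series title's question on SET-32 was put to the locus as the difference of these differences, both set-32 alleles minus met-2 set-25 and wild type. Early after repair the 5′ UTR bin had 3.16 ± 0.93 (SE; adjusted p = 0.183 by limma), the coding bin −1.23 ± 0.55 (0.366) and the stop-codon bin −1.86 ± 0.93 (0.428). At F20 the 5′ UTR bin had 2.98 ± 0.78 (adjusted p = 0.168), the coding bin −2.49 ± 0.46 (0.0577) and the stop-codon bin −2.29 ± 0.68 (0.209). The start-codon bin had 0.80 ± 0.66 early and 0.17 ± 0.65 at F20, and the first-exon bin 1.76 ± 2.79 and 3.43 ± 2.22 (SE; adjusted p from 0.468 to 0.921 by limma). limma called 0 of the 5 bins in either, where 0.48% and 0.563% of all bins were called. Before adjustment 1 of the 5 bins was higher and 0 were lower early (p under 0.05), where 4.97% and 8.79% of all bins were, and 1 was higher and 2 were lower at F20, where 4.35% and 11% of all bins were. The median over all bins was −0.35 early and −0.59 at F20. Both set-32 pairs lie across the table-total split at both times, and neither the wild-type pairs nor the F20 pair of met-2 set-25 do, while its early pair crosses it the other way. The library-name prefix also changes between repaired and never mutant libraries of wild type and of met-2 set-25, and not within either set-32 allele. In these contrasts set-32, the side of the split and the prefix cannot be told apart. With met-2 set-25 left out, so that set-32 was compared with wild type alone (chosen after the data were seen), the 5′ UTR bin passed early (4.63 ± 0.74, adjusted p = 0.00707) and at F20 (4.15 ± 0.73, adjusted p = 0.0217), as did the stop-codon bin at F20 (−3.36 ± 0.65, adjusted p = 0.0357). That refit called 2.78% of all bins early and 1.22% at F20. In that comparison table total and somatic markers change between repaired and never mutant set-32 libraries but not between the wild-type ones. The prefix changes between the wild-type ones and not between the set-32 ones, so set-32, the split and the prefix cannot be told apart.

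Set against the mutants from which they descend, repaired libraries again divided by background, with 1 library each. The set-32 pairs lie across the table-total split at both times, and the early met-2 set-25 pair crosses it the other way. The wild-type pairs and the F20 met-2 set-25 pair do not cross it. The library-name prefix changes in the wild-type and met-2 set-25 pairs and not in the set-32 pairs. Early, being wild type and staying on 1 side of the split cannot be told apart. In wild type the 5′ UTR and downstream bins were lower than in the mutant (−1.70 and −1.61 at F5, −1.39 and −2.18 at F20) and the coding and stop-codon bins higher (1.11 and 2.77 at F5, 1.92 and 2.94 at F20). In the other 3 backgrounds the 5′ UTR bin was higher than in the mutant by 1.26 to 1.27 early and by 0.90 to 1.30 at F20, and the downstream bin by 1.40 to 2.34 and by 1.54 to 2.08. Their coding bins were at or below the mutant, by −0.64 to −0.11 early and by −0.97 to −0.08 at F20. The stop-codon bin had −2.79 early and −2.27 at F20 in set-32(ok1457), 0.21 and −0.37 in set-32(red11), and 0.75 and 1.38 in met-2 set-25. Across the 4 backgrounds limma called 0 of the 5 bins early (0.0433% of all bins were called) and 0 at F20 (0.134%), and 0 had an unadjusted p under 0.05 at either time. Of all bins 2.22% were higher and 5.72% lower before adjustment early, and 2.77% and 7.45% at F20. The fitted means lay between −0.59 and 0.52 early and between −0.39 and 0.45 at F20, and average over differences of opposite sign.

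No bin of the locus was called between F20 and early repaired libraries. The 5′ UTR bin had −0.07 ± 0.20, the start-codon bin 0.07 ± 0.26, the coding bin 0.06 ± 0.29 the stop-codon bin 0.18 ± 0.25 and the first-exon bin 0.77 ± 0.77 on the log2 scale (SE; adjusted p from 0.955 to 0.992 by limma). The mean of the coding bin averages differences of opposite sign, −0.27 in set-32(ok1457) and −0.86 in set-32(red11) against 0.56 in met-2 set-25 and 0.81 in wild type. In the first-exon bin F20 differed from early by 1.5 in set-32(ok1457), 1.72 in set-32(red11), −0.13 in met-2 set-25 and 0 in wild type. limma called 0 of the 5 bins and 0% of all bins, and 0 of the 5 had an unadjusted p under 0.05, where 1.71% of all bins were higher and 2.08% lower.

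The background alone was compared with the state as a block. Set-32 libraries, both alleles over all 4 states, had 0 of 5 bins called against wild type, and 0% of all bins. The start-codon bin had 0.80 ± 0.27 (SE; unadjusted p = 0.0109, limma adjusted p = 0.288), the only one of the 5 under 0.05 before adjustment, where 8.78% of all bins were higher and 2.97% lower. The 5′ UTR bin had 1.10 ± 0.56 (adjusted p = 0.469 by limma), the first-exon bin 1.23 ± 1.12 (0.701), the coding bin −0.22 ± 0.39 (0.861) and the stop-codon bin −0.59 ± 0.61 (0.746). With the side of the table-total split as a term, in a fit added after the data were seen, the 5′ UTR bin passed (2.88 ± 0.36, limma adjusted p = 0.0116). That fit called 0.409% of all bins. All mutant and never mutant set-32 libraries lie across the split from wild type, so its set-32 difference rests on the repaired libraries alone. For met-2 set-25 against wild type limma called 0 of 5 bins where 0.287% of all bins were called. The stop-codon bin had −1.54 ± 0.42 (unadjusted p = 0.00552, adjusted p = 0.197) and the start-codon bin −0.96 ± 0.37 (unadjusted p = 0.029, adjusted p = 0.357), both under 0.05 before adjustment, as were 4.35% of all bins lower and 7.86% higher. The coding bin had −0.76 ± 0.35 (adjusted p = 0.43 by limma), the first-exon bin −0.66 ± 1.0 (0.832) and the 5′ UTR bin 0.54 ± 0.52 (0.718).

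The sum over the 5 bins was lower in each mutant. It was 563 RPKM in the set-32(ok1457) mutant, 361 in set-32(red11), 219.7 in met-2 set-25 and 259 in wild type. Never mutant worms had 1275 RPKM in set-32(ok1457), 1015 in set-32(red11), 440.4 in met-2 set-25 and 743 in wild type. The mean log2 ratio was −1.30 (SD 0.249), lower in 4 of 4 backgrounds (exact permutation p = 0.13, two-sided, the smallest that 4 pairs allow). Summed over the start-codon, coding and stop-codon bins alone it was −1.74 (SD 0.404), and with the downstream bin added to the 5 it was −1.07 (SD 0.208).

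Repaired sums lay below never mutant ones in every background. Early repaired libraries had 477.5 RPKM in set-32(ok1457), 539.8 in set-32(red11), 247 in met-2 set-25 and 497 in wild type, a mean log2 ratio to never mutant of −0.93 (SD 0.35, exact permutation p = 0.13, n = 4). F20 libraries had 508 RPKM in set-32(ok1457), 391 in set-32(red11), 284 in met-2 set-25 and 641 in wild type, a mean log2 ratio of −0.89 (SD 0.562, exact permutation p = 0.13, n = 4). At F20 wild type was nearest to its never mutant sum, at −0.21, and the set-32 alleles stood at −1.32 and −1.37. The early order turned with the scaling. On the deposited scale set-32(red11) had −0.91 and met-2 set-25 −0.83, against −0.58 in wild type, and with libraries centred on their medians they had −0.65 and −0.61, against −0.88 in wild type. Against the mutant, the early sum had a mean log2 ratio of 0.36 (SD 0.507, exact permutation p = 0.375, n = 4) and the F20 sum 0.41 (SD 0.63, exact permutation p = 0.375, n = 4), with 0.94 and 1.30 in wild type.

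Across the 16 libraries the coding and stop-codon bins varied against the 5′ UTR and downstream bins. The coding and stop-codon bins had a Pearson r of 0.843 (Spearman rho 0.762) on the log2(RPKM + 1) scale, and the 5′ UTR and downstream bins 0.725 (0.715). Between the sets r was −0.802 (rho −0.762) for the 5′ UTR and coding bins, −0.752 (−0.688) for the 5′ UTR and stop-codon bins, −0.774 (−0.847) for the coding and downstream bins and −0.66 (−0.574) for the stop-codon and downstream bins. The start-codon bin joined neither pair, with r of 0.44 and 0.215 with the coding and stop-codon bins and −0.0438 and −0.227 with the 5′ UTR and downstream bins. The first-exon bin had r of 0.541 with the 5′ UTR bin and 0.0171 with the downstream bin. These are descriptions over 16 libraries that share library depth, scaling, 4 backgrounds and 4 states, and they restate in part the differences between states.

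The flanks were nearly empty. The 37 flanking bins other than the downstream bin and the pair over C38D9.13 had means of 0.000625 to 2.84 RPKM (median 0.57), and none passed the filter. The 20 upstream bins hold fbxa-171, fbxa-172, fbxa-174 and fbxa-176, members of a large family of F-box genes, with C38D9.8 and the pseudogenes C38D9.10, C38D9.11 and C38D9.12. The 3 upstream bins with the highest means were V:17564001–17565000 and V:17565001–17566000 over fbxa-171 (means 2.52 and 1.64 RPKM) and V:17547001–17548000 over C38D9.12 (1.87 RPKM). The fbxa-171 bins reached 26.01 and 16.3 RPKM in the set-32(ok1457) F20 library, in which the first-exon bin also stood at 47.2 RPKM, and their medians over the 16 libraries were 0.005 and 0 RPKM. The first-exon bin had 16.1 RPKM in early repaired set-32(ok1457) and at most 2.35 RPKM in the other 6 repaired libraries. The repaired set-32(ok1457) libraries therefore stood highest in the first-exon bin at both times, with 1 library each.

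**Figure D5:**
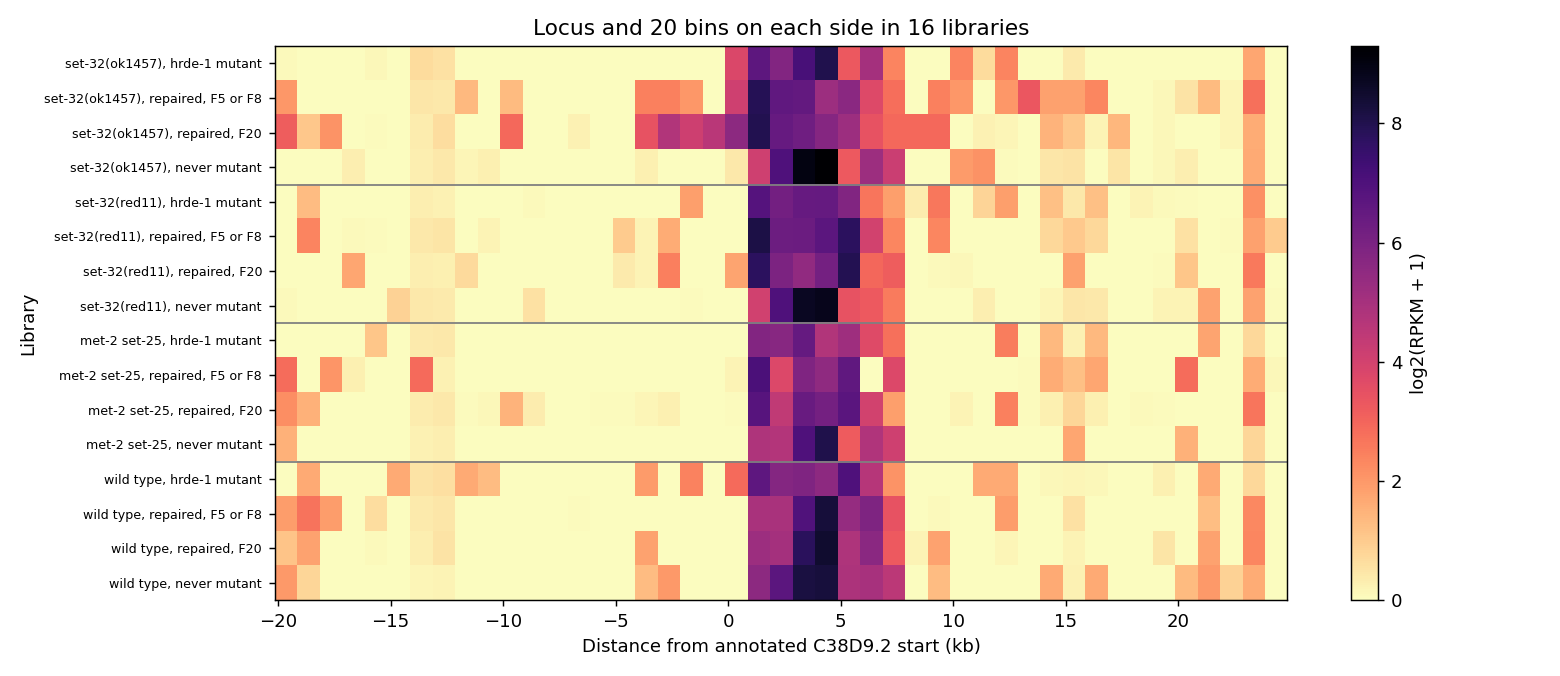
Level of small RNAs as log2(RPKM + 1), by colour, in the 45 bins of the locus and its flanks (x axis, distance from the annotated start in kb) for 16 libraries (rows, grouped by background). Signal stands between the 5′ UTR bin and the bins of C38D9.13, and reaches upstream of the gene in set-32(ok1457) F20, with 26.01 RPKM at the highest.

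Past the downstream bin lies C38D9.13 (WBGene00235090, V:17573208–17574227, plus strand), annotated as a noncoding RNA gene, which overlaps the remaining pair of flanking bins that passed the filter. Most of the second of these bins lies beyond the end of the gene. V:17573001–17574000 averaged 18.2 ± 12 RPKM in mutants, 21.7 ± 26 early, 19.8 ± 18.8 at F20 and 25 ± 11.7 in never mutant worms (SD, n = 4 each). The ranges of the 4 states overlapped, and the log2 difference between mutants and never mutant worms was −0.54 ± 0.35 (SE; limma adjusted p = 0.652). V:17574001–17575000 averaged 4.0 ± 1.41 RPKM in mutants, 8.09 ± 3.80 early, 6.42 ± 2.67 at F20 and 14.9 ± 7.16 in never mutant worms (SD, n = 4 each), with a log2 difference of −1.55 ± 0.51 (SE; adjusted p = 0.272) for the mutants. Its mutant values come to 1 to 2.5 reads a library. Neither bin was called in any comparison, and the highest values over C38D9.13 were in wild type (59.3 RPKM at F5) where the downstream bin next to it stood at 40.2 RPKM.

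The bins elsewhere in the genome whose level over the 16 libraries was most like that of the 5-bin sum were found among the 9046 bins that averaged 20 RPKM or more. They lay in T16G12.3 on chromosome III (III:10050001–10051000, r = 0.922, rho = 0.918), Y54G2A.21 on IV (IV:2908001–2909000, 0.921 and 0.876) and bath-29 on II (II:3353001–3354000, 0.901 and 0.90). The next were a bin of ads-1, Y50D7A.1 and Y50D7A.14 (III:297001–298000, 0.888 and 0.853) and V:14204001–14205000, which overlaps no named gene (0.867 and 0.815). Their mean levels were lowest in mutants and highest in never mutant worms, as with 11.6 RPKM in mutants, 17.6 early, 17.9 at F20 and 77.5 RPKM in never mutant worms over Y54G2A.21. None carried the GRH or GRTS mark, and these 5 were the top of many bins compared over 16 libraries that share states and backgrounds.

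Other genes known as targets of germline nuclear RNAi were read for comparison. The list was chosen with earlier results of these data known, so its counts are a description and not independent evidence. Of 12 such genes 10 were found in the annotation and 9 had tested bins, 36 bins in all. After loss of hrde-1, 9 of these bins were called lower and 0 higher, against 0.712% and 0.425% of all bins. Before adjustment 18 were lower and 5 higher (p under 0.05), against 1521 (5.99%) and 1252 (4.93%) of all bins. Their median was −0.72 against 0.05 over all tested bins. The lower bins lay in F15D4.5 (−2.11 ± 0.27 and −1.13 ± 0.19), F07B7.2 (−2.02 ± 0.24), R03D7.2 (−1.72 ± 0.25), eri-6 (−1.17 ± 0.21, −1.56 ± 0.20 and −4.08 ± 0.69) and in a pair of bins that eri-6, a helicase gene of an endogenous siRNA pathway, shares with sosi-1 (−2.82 ± 0.33 and −4.03 ± 0.42; SE throughout). In the other 5 comparisons limma called 0.0433% and 0.134% of all bins for early and F20 repair against mutants and 0% in the rest. It called 0 of the 36 bins in each. Before adjustment, 5 bins were higher and 3 lower (p under 0.05) for early repair against mutants (563 and 1453 of all 25407 bins), and 8 and 4 at F20 (705 and 1893), with medians of 0.12 and 0.11 against −0.22 and −0.21 over all bins. Against never mutant worms early repaired libraries had 2 higher and 12 lower (205 and 702 of all bins), and F20 libraries 1 and 8 (271 and 807), with medians of −0.43 and −0.44 against −0.17 over all bins at both times. Between F20 and early repair 1 was higher and 0 were lower (435 and 528 of all bins). Genes of the RNAi machinery, among them the Argonaute genes hrde-1, csr-1, prg-1 and ergo-1 and the polymerase genes ego-1, rrf-1 and rrf-3, had 124 tested bins over 26 genes. limma called 0 of these 124 in all 6 state comparisons, where it called at most 1.14% of all bins (loss of hrde-1). Before adjustment, 6 were higher and 7 lower after loss of hrde-1 (p under 0.05), against 1252 and 1521 of all bins, with a median of 0.09, and in the other 5 comparisons 0 to 2 were higher and 3 to 10 lower, against 205 to 705 and 528 to 1893 of all bins.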

How the data were processed

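Small RNAs of 16 libraries were taken from 1 table of RPKM values per 1000 bp bin, as deposited by the authors. The submitters' processing notes list Bowtie 0.12.7. The build is, like the per-million denominator and the treatment of multiply matching reads, not given in the sources used here. Columns were tied to samples through the library names that the labels describe, and a further 27 library columns had no sample and stayed out. The lowest values were near whole multiples of 1 read (50.9 to 78.1% of them within 0.05), too few to recover counts, so no count test was run and no counting interval is given.

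Values were tested as log2(RPKM + 1), which understates changes of low bins, in the 25407 bins averaging 5 RPKM or more. A linear model (limma 3.58.1 in R 4.3.3, with trended empirical Bayes) was fitted over all of these bins, with background as a block for state comparisons and state as a block for background comparisons. A bin was called where its two-sided p, adjusted by Benjamini-Hochberg over all bins, was under 0.05. Differences given per background are those of log2(RPKM + 1) between 2 libraries and have no error of their own. Sums over the locus were compared by exact permutation, with signs flipped within the 4 backgrounds. On simulated data for the comparison of mutants with never mutant worms (25407 bins, 50 changed by each size), 98% of log2 changes of 4, 58% of 2, 28% of −2 and 70% of −4 were recovered, with 9 false calls. Changes were added to normal draws on the log2(RPKM + 1) scale with no floor. Lowered values of low bins could thus fall below 0, which real values cannot. The rates are for bins taken from all those tested and not for this locus.

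Named were the 5 bins of the locus, with flanking bins that were called or had the 3 highest means on their side, and the 5 regions most like the locus sum. Genes were named from the WBcel235 annotation, with the coordinates of the deposited bins. The locus, the gene lists and these rules were chosen with earlier results of these data known. Alternatives covered the pseudocount, the filter, scaling, single backgrounds left out, 1 fit of all libraries and sums over other bins. Sequences were not used here.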

Additional observations from a re-analysis of the deposited data

Results flagged for a closer look

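In groups of 4 libraries (1 bin in 1 state), 5 values stood far from the rest of their group by Dixon's criterion, which chance meets in about 1 of 20 groups. Each bin was read in 4 states, so chance alone can give some of these. The first-exon bin was highest in set-32(ok1457) among early repaired libraries (16.08 RPKM, next 0.15), among F20 libraries (47.15 RPKM, next 2.35) and among never mutant libraries (0.33 RPKM, less than 1 read, the others listed at 0). In the never mutant group the ties at 0 mean that any value above 0 would meet the criterion. Wild type stood apart in the stop-codon bin at F20 (354.25 RPKM, next 68.67) and in the downstream bin of never mutant worms (27.56 RPKM, next 9.88).

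In 5 cases both set-32 alleles moved one way and both met-2 set-25 and wild type the other, on the log2 scale. These differences were picked by their signs and were not tested. They were picked from every state comparison of the locus bins, the downstream bin and the pair of bins over C38D9.13. With that many sign patterns read, chance alone can give a list of this length. In the start-codon bin, early repair minus mutant gave 0.80 in set-32(ok1457) and 0.14 in set-32(red11), against −1.91 in met-2 set-25 and −0.86 in wild type. In the stop-codon bin, F20 minus mutant gave −2.27 and −0.37 in set-32(ok1457) and set-32(red11), against 1.38 in met-2 set-25 and 2.94 in wild type. F20 minus early repair gave −0.12 in set-32(ok1457) and −0.37 in set-32(red11), against 0.66 in met-2 set-25 and 0.11 in wild type, in the start-codon bin. In the coding bin the same difference was −0.27 and −0.86 in set-32(ok1457) and set-32(red11), against 0.56 in met-2 set-25 and 0.81 in wild type. Over V:17574001–17575000 (C38D9.13), at a few reads per library, it was 0.0934 and 0.83 in set-32(ok1457) and set-32(red11), against −1.91 in met-2 set-25 and −0.16 in wild type.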

How the results depend on the processing

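The signs of the coding and stop-codon bins after loss of hrde-1 held in every alternative run, at −2.14 to −1.54 and −2.78 to −2.11, but their calls did not. Of the 5 bins, 2 were called in the main fit, 1 with a pseudocount of 0.25, 0 with no filter on low bins, 0 with all 16 libraries in 1 fit, and 0 to 1 with single backgrounds left out. A pseudocount of 5 called the 5′ UTR bin as well (adjusted p = 0.0389, 3 bins). Over all bins loss of hrde-1 gave 289 calls, and with a background left out 0 (set-32(red11)) to 107 higher and 163 lower (wild type). A pseudocount of 0.25 gave 37 higher and 78 lower calls over all bins, and a pseudocount of 5 gave 162 and 255. The fit of all 16 libraries gave 83 and 90, and with no filter 0 of 99988 bins were called. The number of calls at the locus therefore changed together with that over all bins.

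For set-32 against wild type, 1 bin rather than 0 was called with the side of the table-total split as a term, where the difference rests on the repaired libraries alone. For the set-32 contrast, leaving out met-2 set-25 called 1 bin early and 2 at F20, and a pseudocount of 5 called 1 at F20 (the coding bin, −2.41, adjusted p = 0.0379), against 0 in the main fits. Signs turned in 4 cases that had not passed: the bin V:17573001–17574000 early against never mutant (−1.13 in the main fit, −1.83 without wild type to 0.0805 without met-2 set-25), the coding bin in the set-32 contrast of hrde-1 loss without met-2 set-25 (0.27, against −0.63), and the locus sum at F20 against early, at −0.0587 without wild type and −0.00315 without met-2 set-25, over a range of −0.0587 to 0.218. Calls of the other state comparisons stayed at 0 of 5. In the set-32 contrast at F20, the pseudocount of 5 gave 145 higher and 53 lower calls over all bins. The state fits and the sums pair libraries by background, and no replicate block beyond that could be fitted, with 1 library in each group. Depth limits the first-exon, downstream and C38D9.13 bins most, at 0 to 3 reads in several libraries.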
